A study of Rattus norvegicus with 4 samples.

Results

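Short m6A peaks, those under 100 bp, were described in neonatal rat cardiac fibroblasts (CFs) that carried the empty plasmid (Vector) or the plasmid with FTO. They were chosen by their listed length alone, and numbered 4642 of the 39045 peaks in the lists of both groups. The Vector list held 2723 of them among 21249 peaks and the FTO list 1919 among 17796. The primary CFs came from the hearts of healthy Sprague-Dawley rats no more than 3 days old, and their labels give the genotype as WT for Vector and as FTO overexpression for FTO. The plasmid was transfected rather than integrated, and how many pups contributed to a culture is not stated in the sources used here. Each group had 1 m6A-IP and 1 input library, from which the authors made 1 list of peaks, so differences between the groups stand without replicates and were not tested. Each peak has a number, its length, the transcript from Ensembl and usually an NCBI gene ID. Read depth is unknown, and since the positions and sequences of the peaks were not analysed here, none is printed.

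m6A is a methyl mark on adenosines of RNA, set on new transcripts by the METTL3-METTL14 methyltransferase, removed by the demethylases FTO and ALKBH5, and bound by reader proteins of the YTH and IGF2BP families. In m6A-seq, RNA fragments are pulled down with an m6A antibody, and a peak is a stretch where they exceed the input. The length of a peak is that of the listed interval and does not give the number of marks in it. The cells' label was checked against marker genes, with the limit that a gene without a peak can still be expressed. Of 11 cardiac fibroblast markers, 6 had a peak in each list, while Vim, Dcn, Col1a1 and Col3a1 had none in either. Cardiomyocyte markers also had peaks, 5 of 7 genes in the Vector and 4 in the FTO list.

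The share of short peaks was 12.8% (95% Wilson interval 12.4% to 13.3%) in the Vector and 10.8% (10.3% to 11.2%) in the FTO list. The intervals cover counting error only, and peaks of the same gene are not independent. There were 804 fewer short peaks with FTO, so that 70.5 were listed for every 100 in the Vector list. This ratio was 77.1 for peaks of 100 bp to under 200 bp, 88.0 for 200 bp to under 500 bp and 95.3 for at least 500 bp. The ratio thus rose over the 4 length classes, and the short peaks stood at its lower end. Within the short peaks it did not rise evenly. It was 55.6 at 30 to 39 bp, 70.5 at 50 to 59 bp, 66.4 at 70 to 79 bp and 78.7 at 80 to 89 bp. At 90 to 99 bp it was 70.3, and just above the limit, at 100 to 109 bp, it was 69.9. No step was seen at 100 bp.

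Short peaks fell on 1797 of 7894 genes in the Vector list (22.8%) and on 1336 of 7297 in the FTO list (18.3%). In all, 22 short Vector peaks and 14 short FTO peaks had no gene ID and were kept by their transcript. Another 51 and 44 had a gene ID for which no symbol was found. Nearly all of those with an annotated gene type were on protein-coding genes, 2642 of 2647 Vector peaks and 1857 of 1859 FTO peaks, as were 99.7% of the longer peaks in each list.

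The lengths of the short peaks were alike in the 2 lists. The shortest, the median and the longest were 5, 79 and 99 bp in the Vector and 3, 80 and 99 bp in the FTO list. Peaks under 50 bp were few, with 311 and 194. At the limit itself, 89 Vector peaks had 99 bp and 59 had 100 bp, and 57 and 39 FTO peaks did. The shortest with a partner of equal length in the other list was a peak of 12 bp in Rdx, which encodes radixin, a linker of actin to the plasma membrane.

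Lengths divisible by 3, the size of a codon, were the most common. They made up 1117 of the 2723 short Vector peaks (41.0%, 95% Wilson interval 39.2% to 42.9%), while 808 left a remainder of 1 and 798 a remainder of 2. In the FTO list they made up 811 of 1919 (42.3%, 40.1% to 44.5%), against 588 and 520. Over all lengths the share was 38.1% in the Vector and 38.0% in the FTO list, and of the whole numbers from 1 to 99, 33.3% are multiples of 3. In all peaks of at least 100 bp the share was 37.7% (37.0% to 38.4%) and 37.5% (36.8% to 38.3%), with intervals below those of the short peaks. Against the nearest classes the intervals mostly overlapped. At 100 bp to under 200 bp the Vector share was 38.5% (37.4% to 39.6%), which overlapped, and the FTO share 38.5% (37.3% to 39.7%), which did not. At 200 bp to under 500 bp, 38.2% (36.8% to 39.5%) and 39.1% (37.7% to 40.6%) both overlapped. The separation from all longer peaks together depended on the collagen chains, but that gap did not vanish without them. The short peaks then had 39.3% (37.4% to 41.2%) and 40.4% (38.1% to 42.6%), the longer ones 37.5% (36.8% to 38.2%) and 37.4% (36.7% to 38.2%). The short peaks thus kept the higher share in both lists, while the intervals overlapped, only slightly so in the FTO list. Length chose the members, so these shares are a description. The single lengths also stood out in the plot of short peaks by length. At 54 bp the Vector list had 68 peaks, between 23 of 53 bp and 27 of 55 bp, and the FTO list had 42, between 13 and 18.

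**Figure D1:**
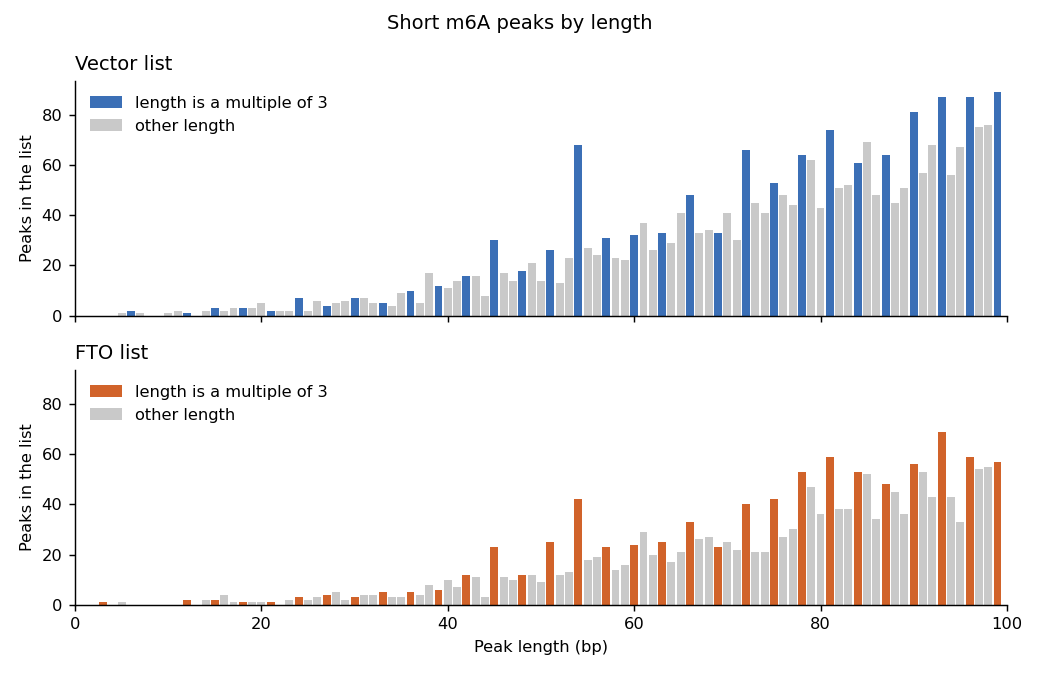
Number of listed peaks (y axis) at each length in bp (x axis) below 100 bp, in the Vector list (upper panel, blue) and the FTO list (lower panel, orange), with multiples of 3 in colour and other lengths in grey. In both lists the coloured bars tend to exceed their grey neighbours, and the bar at 54 bp stands out, with 68 Vector and 42 FTO peaks.

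The collagen chains accounted for most of the peaks of 54 bp. Collagens are built on repeats of Gly-X-Y, a triplet of amino acids encoded by 9 bases, and in the fibrillar collagens the exons of the helical domain commonly code for whole triplets. A stretch of 54 bases holds 6 triplets, 45 bases 5 and 99 bases 11. Of 44 collagen chain genes, 18 had a short peak, and together they had 84 short peaks in the Vector and 63 in the FTO list. That was 49.1% (95% Wilson interval 41.7% to 56.6%) of their 171 Vector peaks and 48.1% (39.7% to 56.6%) of their 131 FTO peaks, where the background over all genes was 12.8% and 10.8%. Among the short collagen peaks, 41 in the Vector and 26 in the FTO list had exactly 54 bp, which left 27 and 16 peaks of 54 bp to all other genes.

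All short peaks of the fibrillar chains had lengths divisible by 3, 49 in the Vector and 32 in the FTO list. Of these, 47 (95.9%, 95% Wilson interval 86.3% to 98.9%) and 29 (90.6%, 75.8% to 96.8%) were also divisible by 9. In the other collagen chains 15 of 35 and 14 of 31 were divisible by 9. In all remaining genes the share was 15.0% (13.7% to 16.4%) in the Vector and 14.5% (13.0% to 16.2%) in the FTO list, and of the whole numbers from 1 to 99 it is 11.1%. Whether the ends of these peaks fall on exon boundaries was not tested.

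Col5a1, which encodes the α1 chain of the regulatory fibril collagen V, had more short peaks than any other gene. It had 19 among 34 Vector peaks, with 14 of 54 bp, 3 of 45 bp, 1 of 36 bp and 1 of 90 bp. In the FTO list it had 14 among 29, with 9 of 54 bp, 2 of 45 bp and 1 each of 57, 90 and 93 bp. Its peaks of 108 bp, as long as 12 triplets, numbered 9 in each group. The 5 fewer short peaks were thus mostly of 54 bp, and 12 short peaks kept an equal length.

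Col5a2, the α2 chain of the same collagen, had 15 short peaks among 22 in the Vector list and 14 among 21 in the FTO list. Both lists gave it 9 peaks of 54 bp, 1 of 45 bp and 1 of 78 bp, and the only difference was at 99 bp, with 4 peaks against 3. Each of the 14 short FTO peaks of Col5a2 therefore had an equal in the Vector list. Col11a1, a chain of the fibrillar collagen XI, went from 11 short peaks among 18 to 3 among 6. In the Vector list these were 10 of 54 bp and 1 of 57 bp, and in the FTO list 3 of 54 bp. The drop of 8 was the largest of any gene. Col5a3 and Col24a1 had 2 short Vector peaks each, all of 54 bp, and no short FTO peak, whereas Col27a1 had none and 1 of 54 bp. Over all lengths, Col5a3 went from 7 peaks to 1, Col24a1 from 5 to 1 and Col27a1 from 2 to 3.

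Among the collagens outside the fibrils, the basement membrane chain Col4a1 had 7 short Vector peaks of 13 and 8 short FTO peaks of 11. Its partner chain Col4a2 had 5 in each, 4 of them with an equal length in the other list. Col18a1, the chain from which endostatin is cleaved, had the same 5 short lengths in both lists, 87, 54, 90, 75 and 69 bp. Col16a1, which associates with fibrils, had 6 and 5. Col15a1 had 2 short Vector peaks and 4 short FTO peaks, and Col4a4 had 3 and none, of 64, 73 and 69 bp. Over all lengths, Col15a1 went from 5 peaks to 6 and Col4a4 from 9 to 1. Among the 18 collagen chains short peaks were fewer with FTO for 10, more for 3 and equal in number for 5, with a median difference of -1. Of all 2103 genes with a short peak, 47.3% had fewer and 18.6% more, so the collagens stood near the background. Over the 2032 genes with a symbol and a short peak the median difference was 0, with a range from -8 to 3. Equal-length FTO peaks were found for 53 of the 84 short collagen peaks in the Vector list (63.1%, 95% Wilson interval 52.4% to 72.6%), compared with 49.3% of all short Vector peaks. However, 41 of the 84 had the same 54 bp, often repeated within a gene, where any peak of that length can serve as the partner. The 2 shares therefore do not show that short collagen peaks were kept more often.

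**Figure D2:**
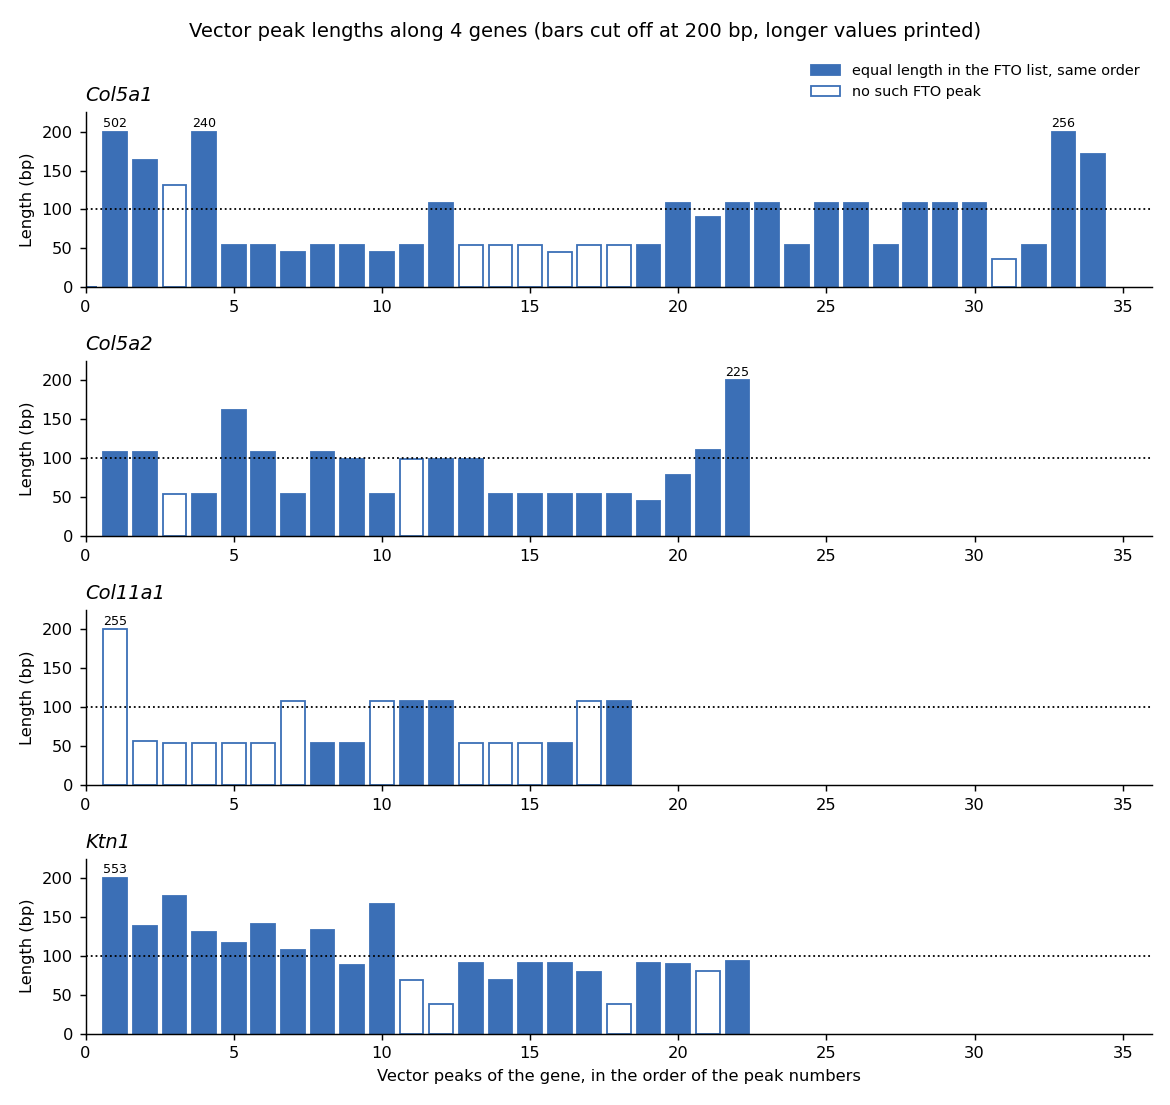
Length in bp (y axis, cut off at 200 bp with longer values printed) of each Vector peak of Col5a1, Col5a2, Col11a1 and Ktn1, in the order of the peak numbers (x axis), filled where the FTO list has a peak of equal length in the same order and open where it has none. Among neighbouring bars of equal length the choice of the open one is arbitrary. Col5a2 lacks 2 short partners by order, and Col11a1 keeps 3 short peaks of 11.

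Short peaks were next set against the other list, a partner being a peak of equal length on the same gene, used once. Of the short Vector peaks, 1343 had such a partner, which is 49.3% (95% Wilson interval 47.4% to 51.2%), and 1380 did not. The background over all Vector peaks was 57.3%. The share was 56.7% (55.5% to 57.8%) for Vector peaks of 100 bp to under 200 bp, 62.8% (61.5% to 64.1%) for 200 bp to under 500 bp and 56.9% (55.6% to 58.2%) for at least 500 bp. Short Vector peaks thus had a partner less often than each longer class, with intervals that did not overlap. Of the short FTO peaks, the same 1343 made up 70.0% (67.9% to 72.0%), where the background was 68.4%. For FTO peaks of 100 bp to under 200 bp the share was 73.5% (72.4% to 74.6%), above that of the short peaks, and for at least 500 bp it was 59.7% (58.4% to 61.0%), below it. Because the FTO list is shorter and pairs are shared, its shares are bound to be the higher ones in every class.

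Along the length of the short Vector peaks, the share with a partner was 35.8% (26.2% to 46.7%) at 30 to 39 bp and 51.7% (48.1% to 55.3%) at 90 to 99 bp. Among short FTO peaks it was 64.4% (49.8% to 76.8%) and 73.6% (69.6% to 77.2%). Just above the limit, at 100 to 109 bp, the share was 51.9% (48.4% to 55.4%) for Vector and 74.2% (70.4% to 77.7%) for FTO peaks. The share with a partner thus showed no step at 100 bp either. The intervals of the shortest peaks were wide, since only 81 Vector and 45 FTO peaks had 30 to 39 bp.

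**Figure D3:**
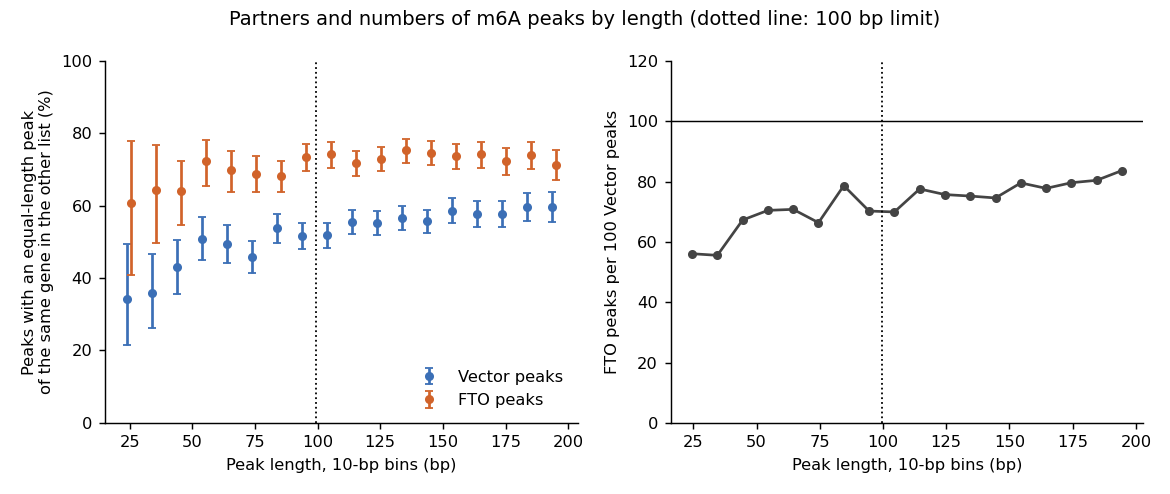
Left, share of peaks (%) with an equal-length peak of the same gene in the other list, with 95% Wilson intervals, for Vector (blue) and FTO (orange) peaks in 10-bp bins of length (x axis, bp) from 20 bp to under 200 bp. Right, FTO peaks per 100 Vector peaks in the same bins, where the ratio was 55.6 at 30 to 39 bp and 83.7 in the last bin, with the dotted line at the 100 bp limit.

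The numbers in the peak names gave a second view of these pairs. The peaks of a gene follow each other in the numbering, in a single run for all but 65 of 7894 Vector genes and 57 of 7297 FTO genes. Of the 1343 short pairs, 1341 could be placed in the same order of numbers in both lists, the exceptions being 1 pair in Col5a2 and 1 in Ktn1. Of all 12166 pairs, 12158 could. A single pair of a gene is always in order, and the short pairs were not split by this. In genes with at least 2 pairs, 9560 of 9568 pairs of any length were in order. Where a length is repeated within a gene, the alignment can choose the copy that keeps the order. Equal lengths thus recurred in the same order of numbers, which pairing by gene and length had not used. That the numbers follow the position of the peaks along a gene is inferred from these runs and not stated in the sources used here.

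Genes with short peaks had many peaks. They had a median of 4 in each list, against 1 for genes without a short peak. A gene with more peaks has more occasions for a short one, so a difference in this direction follows from the grouping itself. Of the 1797 Vector genes, 1281 had a single short peak, 319 had 2 and 197 had 3 or more, and of the 1336 FTO genes, 1001, 216 and 119 did. Few genes had short peaks alone, 220 in the Vector and 165 in the FTO list, while 1289 (71.7%) and 984 (73.7%) also had a peak of at least 200 bp. The share of short peaks was 5.69% (95% Wilson interval 4.95% to 6.52%) in Vector genes with a single peak and 20.2% (18.7% to 21.8%) in those with 10 or more. For FTO genes it was 4.41% (3.77% to 5.15%) and 18.3% (16.5% to 20.3%).

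In the order of the numbers, short peaks stood more often between the first and the last peak of a gene than at either end. In genes with 3 or more Vector peaks, 1609 of the 8802 peaks between the first and the last number were short, which is 18.3% (17.5% to 19.1%), and 597 of the 5630 first or last ones, which is 10.6% (9.83% to 11.4%). The FTO shares were 16.4% (15.5% to 17.3%) and 9.51% (8.70% to 10.4%). Genes with many peaks, where the short share was higher, weigh more among the inner peaks. The comparison was not made at equal numbers of peaks, so place and number of peaks are mixed in it.

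A peak whose neighbours by number on the same gene both kept a partner allows the lists to be compared inside genes with peaks in both groups. There were 768 such short Vector peaks, and 238 of them (31.0%, 95% Wilson interval 27.8% to 34.3%) had no partner in the FTO list. The share was 24.4% (22.5% to 26.3%) at 100 bp to under 200 bp, 17.1% (14.7% to 19.8%) at 200 bp to under 500 bp and 5.88% (3.84% to 8.91%) at 500 bp and more. The intervals of the short peaks and the longer classes did not overlap. For 195 of the 238 short peaks (81.9%) no FTO peak was listed between the flanks, and for 43 a peak of another length was. That share was near the 80.3% at 100 bp to under 200 bp and the background of 80.4% over all lengths. In 66 of the 195 the FTO numbers of the flanks followed each other directly, and in the rest numbers that the list leaves out lay between them. Conversely, 110 of 716 flanked short FTO peaks (15.4%, 12.9% to 18.2%) had no Vector partner. That share was 15.2% (13.7% to 16.8%) at 100 bp to under 200 bp, and these intervals overlapped.

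**Figure D4:**
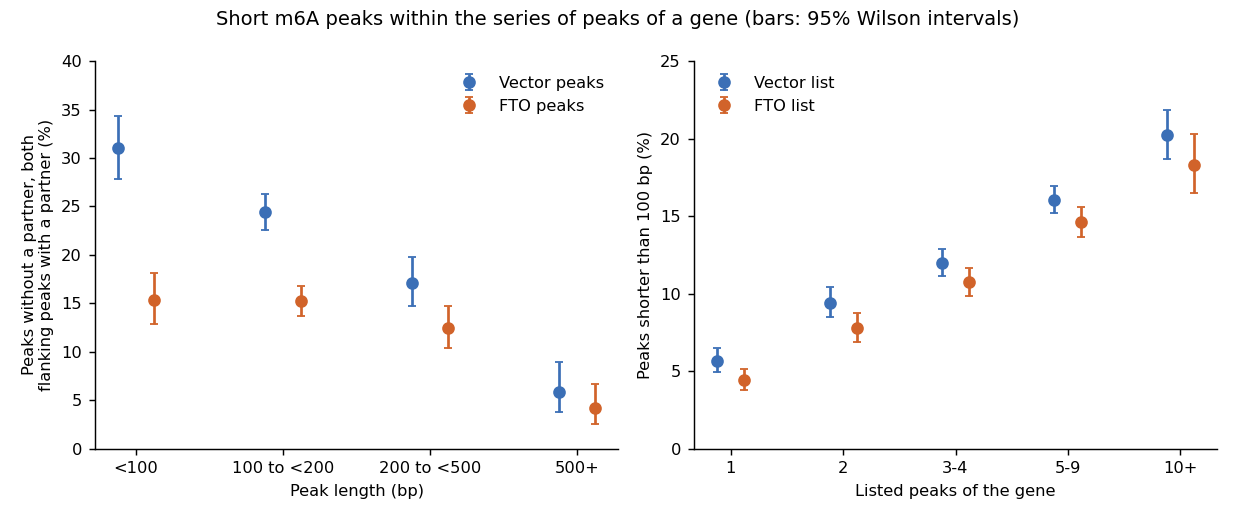
Left, share of peaks (%) without a partner among those whose flanking peaks of the same gene both had one, by length class (x axis, bp), for Vector (blue) and FTO (orange) peaks; the Vector share runs from 31.0% under 100 bp to 5.88% at 500 bp and more. Right, share of short peaks (%) by the number of listed peaks of the gene (x axis); it is lowest for single peaks, 5.69% and 4.41%, and highest for 10 or more, 20.2% and 18.3%. Bars are 95% Wilson intervals.

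Counted by gene, 2103 genes had a short peak in at least 1 list. The FTO list had fewer of them for 995 genes (47.3%), more for 392 (18.6%) and the same number for 716. Over peaks of all lengths the background was 41.4% of 8729 genes with fewer and 21.2% with more, and over peaks of at least 100 bp 3272 of 8506 genes (38.5%) had fewer. Of the 1797 genes with short Vector peaks, 1030 (57.3%) had short FTO peaks too, 549 (30.6%) had longer FTO peaks alone and 218 (12.1%) had no FTO peak. Over all lengths, 7894 genes had a Vector peak and 7297 an FTO peak, of the 8729 in either list. By these totals, a lack of any FTO peak was more frequent among all Vector genes than among those with short peaks. Of the 1380 short Vector peaks without a partner, 1130 (81.9%) were on genes that had some peak in the FTO list. The same share was not computed for longer peaks, so it does not set the short ones apart.

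Outside the collagens, Ktn1 had the most short peaks. It encodes kinectin, a membrane protein of the endoplasmic reticulum that binds kinesin. It had 13 short peaks among 22 in the Vector list and 10 among 19 in the FTO list, and all 10 had a partner. The lengths missing from the FTO list were 38, 38 and 81 bp. Abi3bp, a protein of the extracellular matrix, had 9 short peaks in each list, 8 of them with equal lengths, and they made up all but 2 of its 11 Vector peaks. In the Vector list they were of 75, 75, 66, 78, 81, 48, 60, 72 and 75 bp, each divisible by 3.

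Asph, an enzyme that hydroxylates aspartate in the endoplasmic reticulum, had 9 short Vector peaks and 6 short FTO peaks, and each of the 6 had a partner. Ccdc93, a subunit of a complex that recycles membrane proteins from endosomes, had 9 and 4, again with a partner for each of the 4. In the FTO list it kept the peaks of 99, 37, 63 and 85 bp. Cttn, which encodes the actin-binding protein cortactin, had 9 and 8. Its peaks lay in 2 separate runs of numbers with repeated lengths, so the count for Cttn is uncertain, since reads of near-identical copies could be split between them.

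The largest drops besides Col11a1 were those of Cast, Ccdc93, Col5a1 and 6430548M08Rikl. Cast, which encodes the calpain inhibitor calpastatin, had 7 short Vector peaks, of 93, 93, 99, 96, 84, 90 and 63 bp, and 1 short FTO peak, of 84 bp. All peaks of Cast numbered 10 and 2, so the longer ones were fewer too. The 5 short Vector peaks of 6430548M08Rikl, of 71, 41, 79, 78 and 95 bp, had no short FTO counterpart. All peaks of this gene numbered 9 and 2, and those of Ccdc93 15 and 8, so longer peaks were fewer there as well.

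The largest gains were 3 short peaks each, in Fto, Nckap1l, Tnip3 and Tnnt2. Fto, the transfected gene, had no short Vector peak and short FTO peaks of 80, 78 and 60 bp, as its peaks of all lengths went from 3 to 9. Reads from the plasmid and from the endogenous gene cannot be told apart. Nckap1l, a subunit of the WAVE actin regulator in blood cells, had 1 short Vector peak and 4 short FTO peaks. Tnip3, a partner of the NF-κB inhibitor TNFAIP3, went from none to 3, and the cardiomyocyte troponin Tnnt2 from 1 to 4. Peaks of all lengths rose as well, from 6 to 10 in Nckap1l, 1 to 6 in Tnip3 and 4 to 7 in Tnnt2. The 7 cardiomyocyte markers together had 3 and 5 short peaks, and 22 and 24 of all lengths, and the 3 blood cell markers had 3 short peaks in each list, all of them in Ptprc. The part of other cell types in these numbers was not tested.

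**Figure D5:**
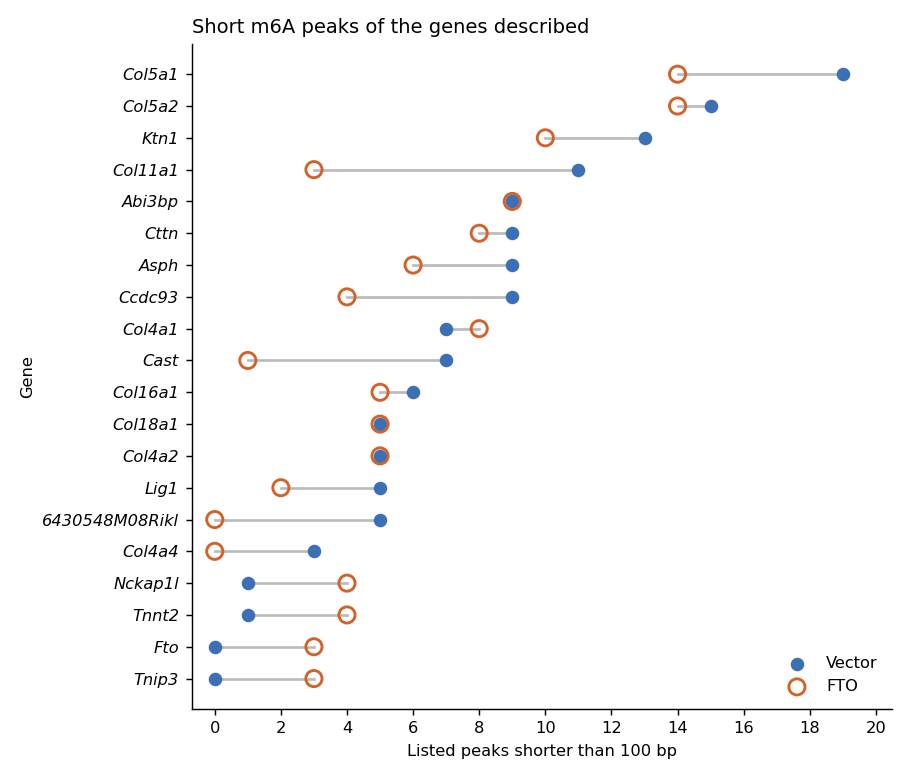
Number of listed peaks shorter than 100 bp (x axis) in the Vector list (filled blue) and the FTO list (open orange) for the genes with 5 or more in either list or a change of 3 or more among those described (y axis). Col11a1 shows the widest gap, from 11 to 3, Abi3bp and Col18a1 have the same number in both lists, and Fto goes from 0 to 3.

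Of 21 m6A writers, erasers and readers, 8 had a short peak. Together they had 10 short Vector peaks of 61 and 17 short FTO peaks of 71, with fewer for 1 gene, more for 5 and the same number for 2, where 47.3% of all genes with a short peak had fewer and 18.6% had more. The share that was short was 16.4% (95% Wilson interval 9.16% to 27.6%) in the Vector and 23.9% (15.5% to 35.0%) in the FTO list. The FTO interval lay above the background of 10.8%, and the Vector interval included that of 12.8%. Fto itself gave 3 of the added peaks, and without it the FTO list had 14 short peaks of 62 (22.6%, 14.0% to 34.4%). The writer subunit Mettl14 had short Vector peaks of 81, 88 and 76 bp and short FTO peaks of 76, 88, 89 and 76 bp. Ythdc1, the nuclear reader, had 64, 83, 90 and 28 bp in the Vector list and the same without 90 bp in the FTO list. The demethylase Alkbh5 had 1 short peak of 81 bp in each. Wtap, a further writer subunit, had none in the Vector list and 2 with FTO, of 56 and 59 bp. Igf2bp2, a reader, had 2 in each list without a shared length, 52 and 64 bp against 61 and 69 bp.

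Genes of DNA replication, with 37 on the list, had 15 short Vector peaks of 84 and 6 short FTO peaks of 31. They were fewer for 5 of 8 genes with a short peak, more for 1 and equal in number for 2, beside 47.3% fewer and 18.6% more over all genes. The share that was short was 17.9% (95% Wilson interval 11.1% to 27.4%) and 19.4% (9.19% to 36.3%), so short and longer peaks were both fewer with FTO. Lig1, which encodes DNA ligase 1, had 5 and 2 short peaks. The 2 that stayed were both of 93 bp, and those of 71, 72 and 54 bp were in the Vector list alone. Clspn, a mediator of the replication checkpoint, Pold3, a subunit of polymerase δ, and Pola1, the catalytic subunit of polymerase α, each had 2 short peaks in the Vector list and none in the FTO list.

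The 35 genes of mitosis and cytokinesis had 11 short Vector peaks of 157, and none among their 60 FTO peaks. These 11 peaks were spread over 10 genes. Cenpe, a kinesin of the kinetochore, had 2, of 88 and 89 bp, and the other 9 genes, Cit, Tpx2 and Smc2 among them, had 1 each. Short peaks made up a small part of this list in the Vector group, with 7.01% (3.96% to 12.1%) of its Vector peaks against a background of 12.8%. The count of 0 among 60 FTO peaks has an upper Wilson limit of 6.02%, which lies within the interval of the Vector share.

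Large matrix and cytoskeletal genes were not rich in short peaks. Matrix glycoproteins and proteoglycans, with 29 genes, had 8 short Vector peaks of 95 (8.42%, 95% Wilson interval 4.33% to 15.7%) and 8 short FTO peaks of 62 (12.9%, 6.69% to 23.4%), and both intervals include the background of 12.8% and 10.8%. Only Eln, which encodes elastin, reached 3, with 85 and 75 bp in the Vector and 85, 72 and 48 bp in the FTO list. In the Vector list, 26 cytoskeletal linkers and actin-binding proteins had 11 of 178 (6.18%, 3.49% to 10.7%), and in the FTO list 10 of 170 (5.88%, 3.23% to 10.5%), with intervals below the background. Of these, Sptbn1, a β-spectrin, had 2 short Vector peaks of 85 and 91 bp, which returned with FTO beside a further peak of 43 bp. The 11 cardiac fibroblast markers had 1 short peak, of 70 bp in Thy1 of the Vector list. Eprs1, the glutamyl-prolyl-tRNA synthetase on which the study centres, had 3 Vector peaks and 1 FTO peak, none of them short.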

How the data were processed

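Per the labels, RNA of NRCFs was immunoprecipitated for m6A, and IP and input libraries were sequenced. The submitters' processing notes name cutadapt 1.9.3, HISAT2 2.0.4 and the build rn6. The peak names carry the prefix MACS, while the caller's settings and threshold are not given in the sources used here. The deposited lists, 1 per group, hold the peak length in bp, which the authors did not normalize, so a cutoff or a difference in depth may change which peaks are listed. Peak numbers have gaps.

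Peaks below 100 bp were taken from each list. A gene was the gene ID or, without one, the transcript. Partners were paired 1 to 1 by gene and equal length, and also aligned in the order of the peak numbers by the longest common sequence of lengths. Flanking peaks are the nearest listed numbers of the gene. Symbols came from the RefSeq table of GRCr8, which matched 1739 of 1779 gene IDs with short Vector peaks and 1295 of 1326 with short FTO peaks. Shares have 95% Wilson intervals (counting error only), and with 1 list per group no test was made. The pairing was run on simulated lists with known common peaks. All peaks added there were long, so false partners of short peaks by coincident length could not arise and were not tested. Named genes are the 10 with the most short peaks in each list, the 5 with the largest fall and rise, Fto and Eprs1, and list members with 3 or more; where over 5 genes tied at the last place, none of them was taken. A gene that the rule takes is not reported here. Rdx and list members with fewer short peaks were named after their values were seen. The members and gene lists were chosen with earlier results of these data known, and the order and flank comparisons after the lists were seen. Python 3.11.15 was used with pandas 2.3.3, numpy 2.4.6, scipy 1.17.1 and matplotlib 3.10.9.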

Additional observations from a re-analysis of the deposited data

How the results depend on the processing

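Of 68 values under 14 alternatives, 43 stayed within 1.5 times the count or within the 95% interval of the share, and 21 of the other 25 came from another length limit. With limits of 50, 80, 120 and 150 bp there were 311, 1422, 4367 and 7039 Vector peaks and 194, 958, 3134 and 5143 FTO peaks, which follows from the limit itself. The share of Vector peaks with a partner was 39.9% at 50 bp, 46.3% at 80 bp and 52.9% at 150 bp, and that of FTO peaks 63.9% at 50 bp and 72.4% at 150 bp. Multiples of 3 made up 38.6% of Vector peaks at 50 bp and 39.8% of FTO peaks at 150 bp. Genes with fewer FTO peaks numbered 169, 616 and 1942 at 50, 80 and 150 bp, and genes with more 60, 223 and 774. Accepting lengths within 10% gave partners to 51.3% of short Vector peaks and 72.9% of short FTO peaks, and accepting any peak of the same gene gave 90.8% and 96.0%, as both rules admit more partners. The excess of genes with fewer over genes with more short peaks was seen at each limit. Without the collagen chains, multiples of 3 made up 39.3% of the short Vector peaks and 40.4% of the short FTO peaks, and the 2 alternatives added after seeing the data, on order and on genes in several runs, moved none of their values. There were no replicates to leave out. No paired analysis was possible because a single list was deposited for the IP and input library of a group. The unknown depth limits each comparison of numbers between the lists.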
